A study of Mus musculus with 6 samples.

Results

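The genes described here mostly encode enzymes that add methyl groups to histones, or that take methyl or acetyl groups off them. They were chosen by gene symbol alone: all rows named Hdac, Kdm, Kmt, Setd or Prmt with a number, together with Nsd1 to Nsd3, Ezh1, Ezh2, Dot1l, Ehmt1, Ehmt2 and Jmjd6. This gave 64 of the 52459 gene symbols in the count table. They were 11 histone deacetylases, 20 demethylases and related JmjC proteins, 24 lysine methyltransferases, 8 arginine methyltransferases and Kdm6bos, a transcript from the strand opposite Kdm6b. Among the 20, Kdm4dl is annotated by GENCODE as an unprocessed pseudogene. RNA was sequenced from macrophages that had been derived from C57BL/6 mouse bone marrow in cRPMI medium with GM-CSF, a growth factor for myeloid cells. Of the 6 libraries, 3 came from cells given piceatannol at day 7 and left with it overnight, and 3 from control cells given the vehicle. Piceatannol is a plant stilbene related to resveratrol that inhibits the kinase Syk. The sources used here do not give its dose or name the vehicle. Nothing in the labels ties the libraries to different animals or dishes, and p-values therefore reflect library-to-library spread that could be technical.

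Deacetylases remove acetyl groups from lysines and mostly work inside co-repressor complexes. Methyltransferases write marks whose meaning depends on the residue: methylation of H3K4, H3K36 and H3K79 is found at active genes, and methylation of H3K9 and H3K27 at silenced ones. Most lysine demethylases belong to the JmjC family and need iron, oxygen and alpha-ketoglutarate, while Kdm1a and Kdm1b use a flavin. In macrophages these enzymes are studied for switching inflammatory and tissue-repair genes on and off, with Kdm6b and Hdac3 among the best known.

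The piceatannol libraries held 33276569 to 49283203 counts and the control libraries 43586270 to 58697084. The 64 genes took 0.513% to 0.529% of the counts in piceatannol libraries and 0.421% to 0.452% in control libraries. Mitochondrially encoded genes took 1.87% to 2.65% in piceatannol and 0.777% to 0.866% in control libraries. All 9 macrophage markers passed the filter (2 higher and 6 lower), summed at 17717 to 19037 CPM with piceatannol and 23324 to 26727 CPM in control, where CPM is the usual count scaled for library depth. Dendritic cell markers summed to 825 to 1026 CPM with piceatannol and 1555 to 1683 CPM in control, and of 7 tested 5 were lower and 1 higher. Neutrophil markers summed to 34.9 to 42.8 CPM with piceatannol and 259 to 604 CPM in control, and 8 of 8 tested were lower. The 4 fibroblast or stromal markers summed to 473 to 513 CPM with piceatannol and 1900.4 to 2140.1 CPM in control, and 3 of them were lower. Mast cell and basophil markers summed to 67.6 to 85.1 CPM with piceatannol and 21.6 to 26.6 CPM in control. Most of this was Kit, a receptor gene that myeloid progenitors also use. Of 3 tested, 1 (Kit) was higher and 2 were lower, Cpa3 (-5.07) and Mcpt8 (-2.22) on the log2 scale, both at low counts. T, B and NK cell and erythroid markers each summed to under 3 CPM in every library, with Ncr1 and Gzmb at 0 in all. The part of these other cells in the results below was not tested. In bulk RNA, fewer cells of a type and less RNA per cell cannot be told apart. Beside these counts of markers, 38.8% of all tested genes were higher and 38.3% lower.

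Of 18 tested demethylase and JmjC genes 11 rose with piceatannol (61.1%, where 38.8% of all tested genes rose) and 3 fell (16.7%, against 38.3%). Together 77.8% of the 18 changed, close to the 77% of all tested genes. The H3K4 demethylase gene Kdm5b led, at 3.72 times its control level. The H3K27 demethylase gene Kdm6b reached 2.98 times and the H3K9 demethylase gene Kdm3a 2.93 times. Deacetylase genes went both ways, with Hdac11 and Hdac7 higher and Hdac1 and Hdac10 lower. Among methyltransferases the H3K79 enzyme gene Dot1l rose 2.13-fold and the arginine enzyme gene Prmt2 2.40-fold, while Prmt1 fell 2.58-fold and the Polycomb enzyme gene Ezh2 1.68-fold. The test was edgeR's quasi-likelihood test, with a threshold of 0.05 on the p-value adjusted by Benjamini-Hochberg over all 15380 tested genes. Of the 64 genes, 60 passed the low-count filter, and 48 of these changed. That is 80% of the 60, close to the 77% of all tested genes that changed. Of the 60 genes 30 rose (50%, where 38.8% of all tested genes rose) and 18 fell (30%, against 38.3%). The values of the groups did not overlap for 47 of the 60 (78.3%), against 79% of all tested genes. The median log2 fold change, piceatannol over control, was 0.19 over the 60 genes and 0.01 over all tested genes. Of the 60 genes, 8 rose at least 2-fold (17.5% of all tested genes did) and 2 fell at least 2-fold (16.6% of all), together 16.7% of the 60 against 34% of all tested genes. Counts near these backgrounds say nothing particular about the family, and the values of the single genes follow by role.

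**Figure D1:**
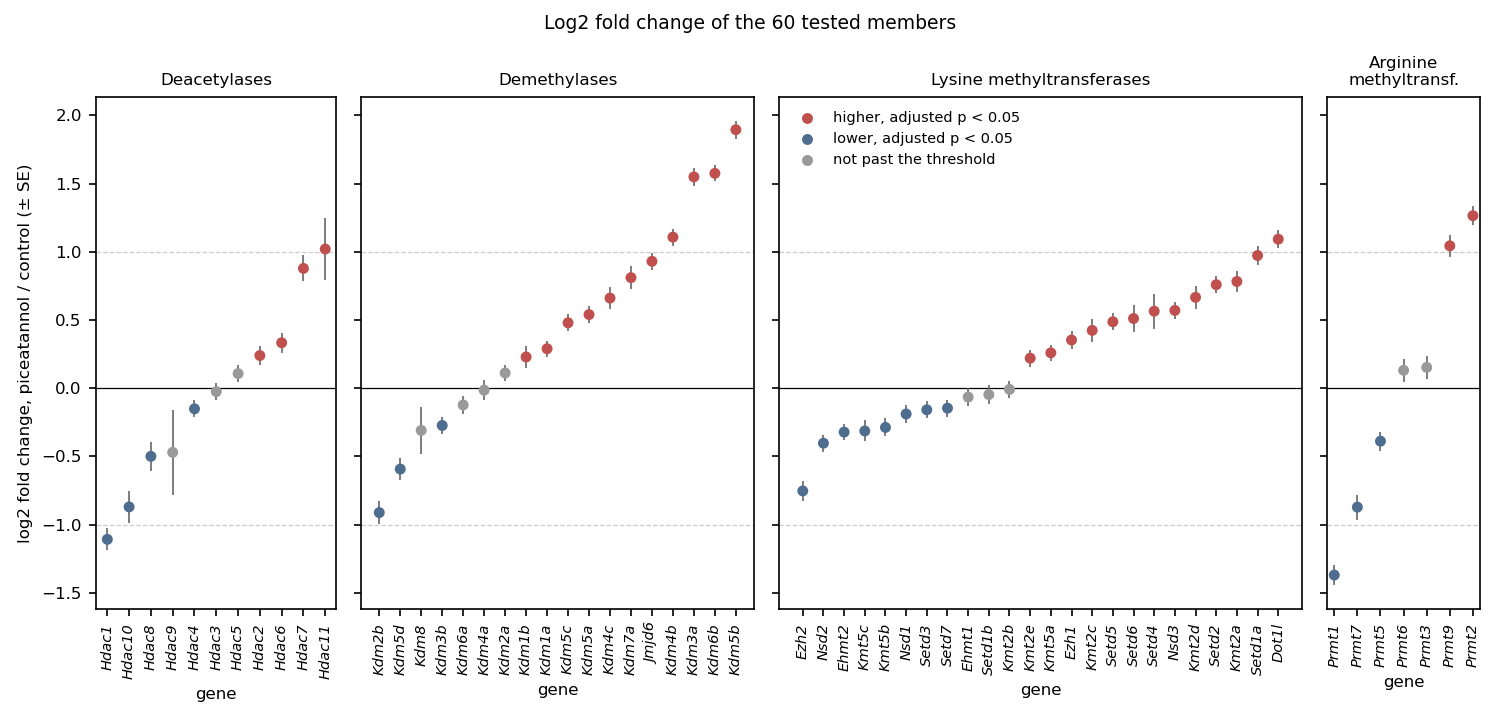
Log2 fold change (piceatannol over control, ± SE) on the vertical axis for the 60 tested genes, in 4 panels by enzyme family and ordered by value within a panel; red points were higher and blue points lower at an adjusted p under 0.05, and grey points did not pass. The demethylase panel, which includes other JmjC genes, runs from -0.91 (Kdm2b) to 1.90 (Kdm5b), with 11 genes higher and 3 lower. These are 61.1% and 16.7% of the panel, where 38.8% of all tested genes were higher and 38.3% lower. Dashed lines mark a 2-fold change.

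Among H3K4 demethylase genes, Kdm5b (chromosome 1, 134560171 to 134635285 on GRCm38) had the largest rise of all 60. It had 109, 104 and 106 CPM in piceatannol libraries, against 29.8, 26.4 and 29.4 CPM in control libraries. Every piceatannol library lay far above every control library. The log2 fold change was 1.90 ± 0.07 (SE; edgeR, adjusted p = 1.01e-15). The related genes Kdm5a (0.54) and Kdm5c (0.48), which encode the other widely used enzymes of this family, also rose on the log2 scale. Kdm5d, the copy on the Y chromosome, fell to 19, 20.8 and 22.8 CPM with piceatannol, against 31.5, 31 and 31.9 CPM in control (-0.59 ± 0.08, SE; edgeR, adjusted p = 1.04e-06). Of the other Y-linked genes, Ddx3y (0.41) and Uty (0.30), another JmjC gene, rose, and Eif2s3y stood at -0.11 on the log2 scale and did not pass. Xist, the X-inactivation RNA that marks female cells, was at or below 0.0605 CPM in every library. The summed FPKM of the 4 KDM5 genes, counts scaled by gene length and library, was 41.7 ± 0.91 with piceatannol and 28.3 ± 1.38 in control (SD, n = 3 each).

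H3K27 demethylation is served by Kdm6b, known as an inducible enzyme that lipopolysaccharide switches on in mouse macrophages, and by Kdm6a, its X-linked and more constant relative. Kdm6b (chromosome 11, 69398508 to 69413675) had 196, 206 and 207 CPM in piceatannol libraries, against 70.4, 66.5 and 67.3 CPM in control libraries. The groups were wide apart and tight within themselves. The log2 fold change was 1.58 ± 0.06 (SE; edgeR, adjusted p = 2.62e-15). By FPKM, Kdm6b ranked 2 of the 64 genes with piceatannol (28.7 ± 0.95) and 21 in control (9.79 ± 0.29, SD, n = 3 each). Its opposite-strand transcript Kdm6bos shares 286 exon bases with it, but held only 12, 5 and 11 counts with piceatannol and 5, 2 and 3 in control and was not tested. Kdm6a stood at -0.12 on the log2 scale and did not pass (edgeR, adjusted p = 0.114).

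Genes for the KDM3 and KDM4 demethylases, most of which act on H3K9, split by gene. Kdm3a (chromosome 6, 71588972 to 71632990), a demethylase gene known to be induced by low oxygen, had 153, 144 and 148 CPM with piceatannol, against 52.1, 46.6 and 53 CPM in control. All 3 piceatannol values stood well clear of the control values. Its log2 fold change was 1.55 ± 0.06 (SE; edgeR, adjusted p = 1.61e-14). Kdm4b (chromosome 17, 56326062 to 56402870), likewise known as oxygen-responsive, had 99.95, 105 and 100.01 CPM with piceatannol, against 45, 47.4 and 49.2 CPM in control. It rose by 1.11 ± 0.06 on the log2 scale (SE; edgeR, adjusted p = 1.89e-12), again with no overlap. Kdm4c rose by 0.66, while Kdm3b, the close relative of Kdm3a, fell by 0.27 (log2). Kdm4a, the most abundant KDM3 or KDM4 gene by FPKM in control (28.1 ± 0.74), stood at -0.01 on the log2 scale and did not pass, and its piceatannol libraries were spread from 141 to 182 CPM. Kdm4d and its near copy, the annotated pseudogene Kdm4dl, stayed under the filter. Kdm4d had 9, 6 and 23 counts with piceatannol and 16, 5 and 11 in control. Kdm4dl had 5, 1 and 3 counts with piceatannol and none in control, where a count of 0 allows up to 0.0688 CPM in the shallowest control library, and shared reads between these copies make both values uncertain. The floor of 3 counts and such limits cover counting error only.

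The promoters of the 4 genes with the largest changes in either direction that had an entry in the RefSeq promoter table (GRCm38.p6) are shown to compare what stands just upstream of them. Each is printed 5′ to 3′ on the strand of its gene and ends before the start of both the RefSeq transcript and the GENCODE gene. Capitals mark the hypoxia response core (ACGTG or GCGTG) and an E2F core, each searched on both strands. The E2F core was written in any of 4 forms. The first form was TTCCCGC and another was TTGGCGC, while the remaining forms were TTCGCGC and also TTGCCGC.
Kdm5b, chr1:134559928-134560170, plus strand: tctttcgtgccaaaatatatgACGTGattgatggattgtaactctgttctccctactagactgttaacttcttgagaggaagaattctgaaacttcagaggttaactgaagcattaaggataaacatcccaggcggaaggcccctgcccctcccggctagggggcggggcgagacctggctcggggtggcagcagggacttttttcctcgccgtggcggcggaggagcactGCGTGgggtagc
Kdm3a, chr6:71632991-71633167, minus strand: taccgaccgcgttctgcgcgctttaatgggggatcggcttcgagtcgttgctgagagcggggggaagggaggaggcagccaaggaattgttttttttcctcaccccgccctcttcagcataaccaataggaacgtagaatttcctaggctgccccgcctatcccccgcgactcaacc
Prmt2, chr10:76237866-76238115, minus strand: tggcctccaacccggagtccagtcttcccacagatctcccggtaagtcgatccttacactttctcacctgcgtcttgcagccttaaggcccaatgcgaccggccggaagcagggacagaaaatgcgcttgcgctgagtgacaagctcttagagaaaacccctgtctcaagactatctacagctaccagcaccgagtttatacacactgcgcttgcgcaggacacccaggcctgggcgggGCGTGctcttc
Prmt1, chr7:44986569-44986670, minus strand: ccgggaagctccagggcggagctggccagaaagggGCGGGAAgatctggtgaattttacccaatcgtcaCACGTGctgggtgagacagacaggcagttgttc
The Kdm5b stretch of 243 bases held 2 hypoxia cores and the Prmt2 stretch of 250 bases held 1, while the 177 bases of Kdm3a held neither motif. The full windows, which reach past the start, held more: Kdm5b also had 1 E2F core, and of the 3 windows of Kdm3a 1 had a hypoxia core with an E2F core, 1 had 2 E2F cores and 1 had neither. The 102 bases of Prmt1 held an E2F core and an ACGTG that reads the same on both strands with its preceding C, so it counts as 2 hypoxia cores, and the whole is the E-box motif. In the full windows of 300 bases, 35 of the 48 members with an entry held a hypoxia core (72.9%), against 46.7% of 27025 genes. Among these members the core stood in 18 of 25 that rose (72%) and 11 of 13 that fell (84.6%). An E2F core stood in 6 of the 48 (12.5%), against 10.9% of the 27025 genes. It stood in 3 of the 25 that rose (12%) and 3 of the 13 that fell (23.1%). A gene with several windows counted if any of them held the core. The 27025 are all genes with an entry, tested here or not, while 60 of the 64 members were tested. The member shares and the shares over all genes are therefore of unlike sets, and tested genes alone were not compared. A match is a description of the letters, not evidence of binding.

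Among the tested members, none of the remaining JmjC genes changed 2-fold. Kdm7a, which acts on lightly methylated H3K9 and H3K27, rose by 0.81 on the log2 scale, and Jmjd6, a JmjC lysyl hydroxylase, rose by 0.93, at 88.6, 87.8 and 90.3 CPM with piceatannol against 44.6, 48.5 and 46.9 CPM in control. Kdm2b, an H3K36 demethylase that also brings Polycomb complexes to CpG islands, fell to 24.3, 30.8 and 25.1 CPM with piceatannol, against 51.1, 50.4 and 49 CPM in control (-0.91 ± 0.08, SE; edgeR, adjusted p = 3.29e-09). The fall held in every library, and 5.77% of the exon bases of Kdm2b are shared with Rnf34 on the other strand. Kdm2a, its paralog, stood at 0.11 on the log2 scale and did not pass, and Kdm8, another JmjC gene, at -0.31 likewise did not. Without control replicate 3 Kdm8 was at -0.49 and passed (edgeR, adjusted p = 0.015).

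The flavin-dependent enzymes rose slightly. Kdm1a (LSD1, the catalytic partner of CoREST; chromosome 4, 136550540 to 136602723) had 87.4, 84.8 and 86.8 CPM with piceatannol, against 71.5, 69.4 and 70.9 CPM in control. The difference was small but the groups did not overlap, with a log2 fold change of 0.29 ± 0.06 (SE; edgeR, adjusted p = 1.52e-04). Kdm1b rose by 0.23, a call that was lost without piceatannol replicate 1, control replicate 2 or control replicate 3 (edgeR, adjusted p = 0.0667, 0.0517 and 0.069). It shares 9.19% of its exon bases with Dek on the other strand, and whether reads were counted by strand is not known. Taken as a sum, demethylase and JmjC genes reached 229.5 ± 4.16 FPKM with piceatannol and 158 ± 3.55 FPKM in control (SD, n = 3 each).

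**Figure D2:**
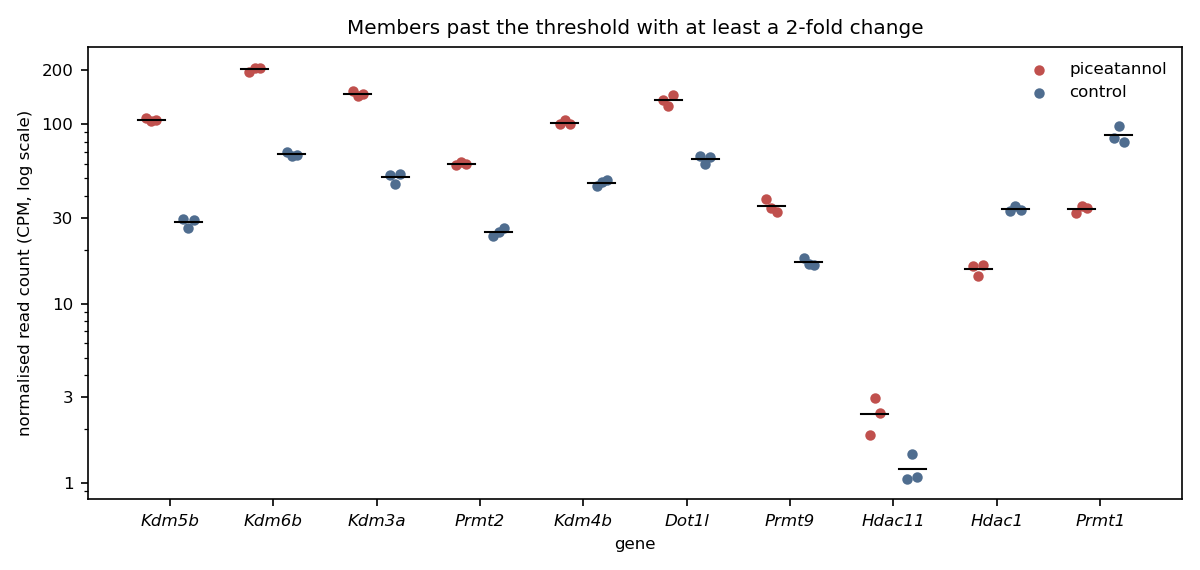
Normalised read count (CPM, log axis) in each library for the 10 genes past the threshold with at least a 2-fold change, piceatannol in red to the left of control in blue; horizontal lines are the means of 3 libraries. No gene shows an overlap between the groups, and Hdac11 lies lowest, at 1.85 to 3 CPM with piceatannol.

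Class I deacetylases, the nuclear core of the co-repressor complexes, changed unequally. Hdac1 (chromosome 4, 129516104 to 129542713) had 16.2, 14.2 and 16.3 CPM with piceatannol, against 32.8, 34.9 and 33.3 CPM in control. Each piceatannol library was below every control library, and the log2 fold change was -1.11 ± 0.08 (SE; edgeR, adjusted p = 1.03e-10). Its partner and close paralog Hdac2 (chromosome 10, 36974544 to 37001889) had 71.5, 73.3 and 63.9 CPM with piceatannol, against 59.4, 61 and 56.3 CPM in control, and rose by 0.24 ± 0.07 (SE; edgeR, adjusted p = 0.00299). Those groups lay close together without overlapping. Hdac3, known for its roles in macrophage gene control, had 72, 67.6 and 71.8 CPM with piceatannol and 70.5, 73.2 and 71.4 CPM in control. The ranges overlapped, and the log2 fold change of -0.02 did not pass (edgeR, adjusted p = 0.719). Hdac8 fell by 0.50. Summed over class I, FPKM was 38.6 ± 0.75 with piceatannol and 43 ± 1.2 in control (SD, n = 3 each).

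Class IIa deacetylases have little catalytic activity of their own and shuttle in and out of the nucleus. Hdac7 rose to 21.7, 26.3 and 21.2 CPM with piceatannol, against 12.4, 12 and 13.2 CPM in control (0.88 ± 0.095, SE; edgeR, adjusted p = 5.21e-08). Hdac4 fell by 0.15 on the log2 scale (edgeR, adjusted p = 0.0318), a call that was lost without piceatannol replicate 1 (0.0558), piceatannol replicate 2 (0.0883), control replicate 1 (0.0744) or control replicate 3 (0.115). Hdac5, the most abundant of the class by FPKM (15.3 with piceatannol and 14.4 in control), stood at 0.11 on the log2 scale and did not pass. Hdac9 was near the detection limit, with 21, 21 and 31 counts with piceatannol and 44, 27 and 58 in control, and its -0.47 did not pass.

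In class IIb, Hdac6, the cytoplasmic tubulin deacetylase, rose by 0.33, while Hdac10, a polyamine deacetylase, fell to 6.63, 7.78 and 8.68 CPM with piceatannol, against 13.1, 15.4 and 13.9 CPM in control (-0.87 ± 0.11, SE; edgeR, adjusted p = 8.05e-07). Hdac11 (chromosome 6, 91156665 to 91174692), the sole class IV enzyme, had 1.85, 3 and 2.46 CPM with piceatannol, against 1.06, 1.46 and 1.08 CPM in control. The groups did not overlap, though the values rest on 78 to 120 counts per piceatannol library and 56 to 64 per control library. Its log2 fold change was 1.02 ± 0.23 (SE; edgeR, adjusted p = 4.80e-04). All 11 deacetylase genes together summed to 71.1 ± 1.01 FPKM with piceatannol and 73.7 ± 1.93 FPKM in control (SD, n = 3 each), without overlap between the groups' libraries.

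Among genes for subunits of the deacetylase complexes 8 of 27 tested were higher and 12 lower, with a median log2 change of -0.0045. For this and the other related lists the shares over all tested genes were 38.8% higher and 38.3% lower, and counts near these shares say nothing particular about a list. Sap18 of the Sin3 complex fell by 1.61 at a low level, 4.21 ± 0.53 CPM with piceatannol and 12.9 ± 0.97 CPM in control (SD, n = 3 each). Rcor2, a CoREST family gene, rose by 2.58 and stayed low, at 14 ± 1.13 CPM with piceatannol and 2.33 ± 0.04 CPM in control (SD, n = 3 each), and Sap30 of the Sin3 complex rose by 1.56. Acetyltransferase genes, the counterparts of the deacetylases, had 7 of 15 higher and 3 lower. Kat6b stood out among them at 96.5, 91.1 and 91.2 CPM with piceatannol, against 18, 14.6 and 17 CPM in control (2.49 ± 0.08, SE; edgeR, adjusted p = 1.49e-16), while Kat2a, the GCN5 enzyme of the SAGA complex, fell by 1.27 and Naa60 by 0.78. Clock rose by 0.56. Of 11 tested HP1 and reader genes, 5 rose and 4 fell, with Brd2, a reader of acetylated histones, up by 1.54 and L3mbtl3 by 1.12. The HP1 gene Cbx3 was at -1.10 and Cbx5 at -1.08. Cbx3 was low, at 3.12 ± 0.32 CPM with piceatannol and 6.74 ± 1.13 CPM in control (SD, n = 3 each).

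Polycomb repressive complex 2 writes H3K27 methylation through Ezh2, its main enzyme in dividing cells, or Ezh1, used more in resting cells. Ezh2 (chromosome 6, 47530139 to 47595341) had 28.9, 26.1 and 25.6 CPM with piceatannol, against 47.8, 45.4 and 42.7 CPM in control. The fall was seen in every library, with a log2 fold change of -0.75 ± 0.07 (SE; edgeR, adjusted p = 1.23e-08). Ezh1 rose by 0.35 ± 0.06 (SE; edgeR, adjusted p = 4.60e-05), and their summed FPKM was 16.9 ± 0.68 with piceatannol and 17.1 ± 0.35 in control (SD, n = 3 each). The Polycomb subunit genes other than these had a median log2 change of 0.38, and 15 of 23 passed upward and 3 downward, where 38.8% of all tested genes passed upward and 38.3% downward. Phf1, a subunit that binds the H3K36 mark, had 114, 119 and 124 CPM with piceatannol, against 27.9, 30.1 and 32.5 CPM in control (1.98), and Cbx2 rose by 1.44. The Phf1 paralog Phf19 fell by 1.57 and Aebp2 by 0.59. Proliferation genes moved with Ezh2: all 12 tested fell, and among them Top2a fell by 4.56 and Rrm2 fell by 3.26 (log2). The 12 genes summed to 172 to 222 CPM with piceatannol and 956 to 1060.2 CPM in control. The part of proliferation in the fall of Ezh2, Hdac1 and Prmt1 was not tested.

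Of 8 genes for H3K4 methyltransferases and their relatives, 5 rose and 1 fell, where 38.8% of all tested genes rose and 38.3% fell. Together 75% of the 8 changed, close to the 77% of all tested genes. Setd1a, which writes trimethylation at promoters, rose most, at 61.1, 58.4 and 61.9 CPM with piceatannol against 31.6, 27.8 and 32.9 CPM in control (0.97 ± 0.07, SE; edgeR, adjusted p = 1.44e-10). GENCODE places 51.8% of its exon bases also in Gm49388 on the same strand. The deposited counts hold no gene of that symbol, and an effect of the overlap on the level of Setd1a was not tested. Its paralog Setd1b had -0.05, which did not pass. Kmt2a (0.78) and the enhancer enzymes Kmt2d (0.67) and Kmt2c (0.42) rose, as did Kmt2e (0.22), which is not known to be an active methyltransferase and shares 9.31% of its exon bases with Srpk2. Kmt2b had -0.01, which did not pass. Setd7, a monomethyltransferase that also acts on other proteins, fell by 0.15 with overlapping groups (edgeR, adjusted p = 0.037), a call that was lost without any of 4 single libraries: piceatannol replicate 1 (0.136), piceatannol replicate 3 (0.088), control replicate 1 (0.150) or control replicate 3 (0.0681).

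The long H3K4 genes also showed a spread within the control group. Kmt2a had 174, 169 and 161 CPM with piceatannol, against 109.5, 84 and 99.2 CPM in control, where replicate 2 was lowest. Of the 27 tested members with a gene length of at least 8 kb, as the deposited FPKM imply it, control replicate 2 was the lowest control for 24, and of all 2192 tested genes that long for 56.3%. Members were long, with a median of 6.87 kb against 3.83 kb over all tested genes. Without control replicate 2 the log2 fold changes of Kmt2a, Kmt2d and Kmt2c were 0.68, 0.56 and 0.32, all past the threshold. With the trend of counts on length removed, 30 members were higher and 18 lower, the same counts as without that step. COMPASS subunit genes, which partner these enzymes, had 3 of 12 higher and 4 lower, with log2 changes of -1.02 for Hcfc1, -0.59 for Ash2l, 0.52 for Hcfc2 and 0.29 for Cxxc1.

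Among H3K36 enzymes, Setd2, the trimethylating enzyme that travels with RNA polymerase II (chromosome 9, 110532597 to 110618633), had 229, 221 and 223 CPM with piceatannol, against 141, 122 and 135 CPM in control. It rose without overlap by 0.76 ± 0.06 (SE; edgeR, adjusted p = 6.49e-10). The dimethylating NSD genes were split, with log2 changes of 0.57 for Nsd3, -0.40 for Nsd2 and -0.19 for Nsd1. The Nsd1 groups overlapped, and its call (edgeR, adjusted p = 0.0187) was lost without piceatannol replicate 1 (0.0696), control replicate 1 (0.104) or control replicate 3 (0.0664). Dot1l, the H3K79 methyltransferase gene (chromosome 10, 80755206 to 80795461), had 137, 127 and 146 CPM with piceatannol, against 66.6, 60.01 and 65.4 CPM in control. Here the groups were far apart, with a log2 fold change of 1.09 ± 0.07 (SE; edgeR, adjusted p = 6.18e-12).

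Ehmt2, the H3K9 enzyme G9a, ranked 1 by FPKM in both groups, at 36.7 ± 2.28 with piceatannol and 46.6 ± 0.99 in control (SD, n = 3 each), and fell by 0.32 on the log2 scale (edgeR, adjusted p = 6.22e-05). Its partner Ehmt1 had -0.06, which did not pass. Among other histone methyltransferase genes that the choice by symbol left out, Carm1 among them, 3 of 12 tested rose and 7 fell. The heterochromatin H3K9 enzymes Suv39h1 (-0.94) and Suv39h2 (-0.99) were down and Prdm2 (0.78) and Smyd3 (0.57) up. Suv39h2 was low, at 1.80 ± 0.35 CPM with piceatannol and 3.61 ± 0.14 CPM in control (SD, n = 3 each). For H4K20, the monomethylating Kmt5a rose by 0.26, while Kmt5b and Kmt5c, which add the further methyl groups, fell by 0.29 and 0.31. Setd3, which methylates a histidine of actin, fell by 0.16, a call that was lost without piceatannol replicate 3 (edgeR, adjusted p = 0.104) or control replicate 3 (0.0854). Setd4 (0.56), Setd6 (0.51), which methylates the NF-kB subunit RelA, and Setd5 (0.49) rose. Among other JmjC genes, 6 of 13 rose and 4 fell. Hr, a nuclear co-repressor and H3K9 demethylase, fell to 12.3, 11.7 and 13.4 CPM with piceatannol, against 226, 272 and 207 CPM in control (-4.23), and Riox2 fell by 0.93. Jmjd1c, a relative of Kdm3a, rose by 0.80 and Hspbap1 by 1.20.

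Arginine methyltransferase genes held the largest fall among the 60 tested members. Prmt1, the main enzyme of asymmetric arginine dimethylation (chromosome 7, 44975989 to 44986568), had 31.9, 35 and 33.9 CPM with piceatannol, against 83.4, 97.2 and 79.9 CPM in control. No piceatannol library came near the control range, and the log2 fold change was -1.37 ± 0.08 (SE; edgeR, adjusted p = 1.43e-12). Prmt5, the main symmetric enzyme, fell by 0.39 and Prmt7, a monomethylating one, by 0.87. Prmt2 (chromosome 10, 76207222 to 76237865), an enzyme of weak activity, had 59.6, 61.7 and 59.9 CPM with piceatannol, against 23.7, 25.2 and 26.5 CPM in control, and rose by 1.27 ± 0.07 (SE; edgeR, adjusted p = 9.35e-13). Prmt9, a symmetric enzyme known for a splicing factor substrate (chromosome 8, 77549397 to 77581338), had 38.6, 34.3 and 32.3 CPM with piceatannol, against 18, 16.6 and 16.4 CPM in control, and rose by 1.04 ± 0.08 (SE; edgeR, adjusted p = 4.51e-10). Neither pair of groups overlapped. Prmt3 (0.15) and Prmt6 (0.13) did not pass, and Prmt6 shares 23.4% of its exon bases with an antisense gene. Prmt8, known from the brain, had 0 counts in all 6 libraries, which allows at most 0.0902 CPM in the shallowest. The genes named Prmt summed to 52.1 ± 0.46 FPKM with piceatannol and 58.3 ± 3.91 FPKM in control (SD, n = 3 each).

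**Figure D3:**
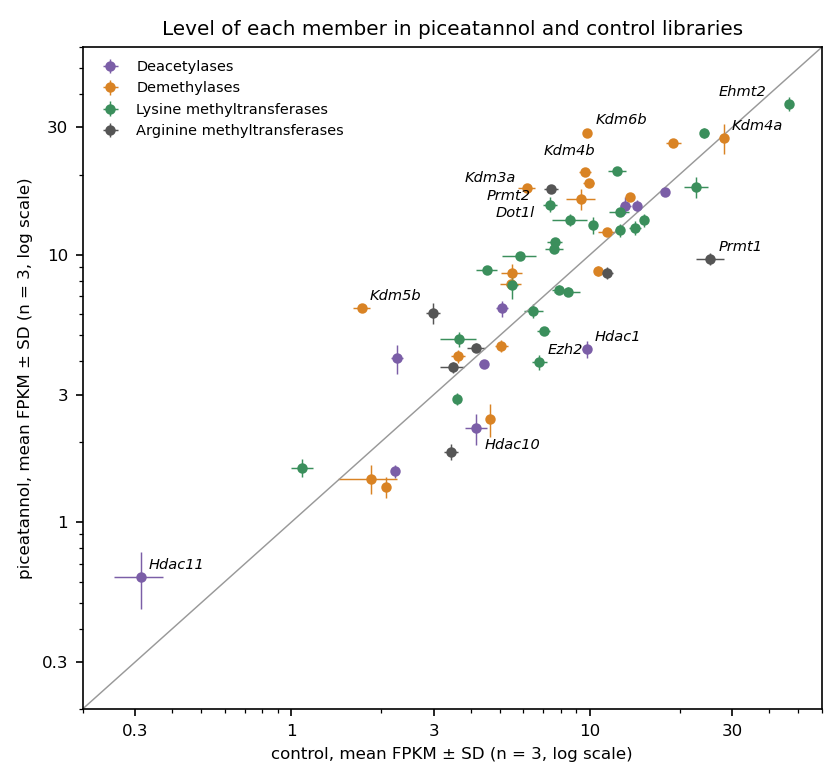
Mean FPKM ± SD over 3 libraries in piceatannol (vertical) against control (horizontal), both on log axes, for the members above 0.2 FPKM in both groups; colours mark the 4 enzyme families and the grey line marks equal levels. Kdm6b sits at 28.7 FPKM with piceatannol against 9.79 in control, and Prmt1 at 9.67 against 25.4.

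By length-scaled level, the highest members with piceatannol were Ehmt2, Kdm6b (28.7 ± 0.95 FPKM), Kmt5a (28.6 ± 1.23), Kdm4a (27.4 ± 3.6) and Kdm5c (26.2 ± 0.94). Below Ehmt2, neighbours in that order differed by less than the sum of their SDs. In control the order was Ehmt2, Kdm4a (28.1 ± 0.74), Prmt1 (25.4 ± 2.75), Kmt5a (24.2 ± 0.81) and Kmt5c (22.7 ± 2.12), and the same held of neighbours below Ehmt2. Each error is an SD over 3 libraries.

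Related enzymes were also compared within each library, as ratios of their FPKM, which do not depend on the scaling between libraries. The Hdac1 to Hdac2 ratio was 0.294, 0.252 and 0.332 with piceatannol, against 0.716, 0.743 and 0.768 in control. The Ezh2 to Ezh1 ratio was 0.36, 0.29 and 0.277 with piceatannol, against 0.694, 0.679 and 0.612 in control. Both ratios were lower in every piceatannol library. The Kdm6b to Kdm6a ratio was 5.92, 6.18 and 6.78 with piceatannol, against 1.93, 2.01 and 1.87 in control, and the Kdm5b to Kdm5a ratio 0.831, 0.771 and 0.827 with piceatannol, against 0.303, 0.31 and 0.337 in control. These ratios were higher in every piceatannol library. Setd1b to Setd1a (0.706 ± 0.06 with piceatannol and 1.43 ± 0.03 in control) and Prmt1 to Prmt5 (1.13 ± 0.07 with piceatannol and 2.22 ± 0.14 in control, SD, n = 3 each) were lower with piceatannol. By an exact two-sided permutation test, 9 of the 10 pairs fixed for this comparison had p = 0.1, the smallest that 3 against 3 libraries allow, and adjusted p = 0.111 over the 10 pairs. So no pair could pass the threshold. Kdm1b to Kdm1a had 0.255 ± 0.012 with piceatannol and 0.266 ± 0.013 in control (SD, n = 3 each), with overlapping values (exact permutation p = 0.4).

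**Figure D4:**
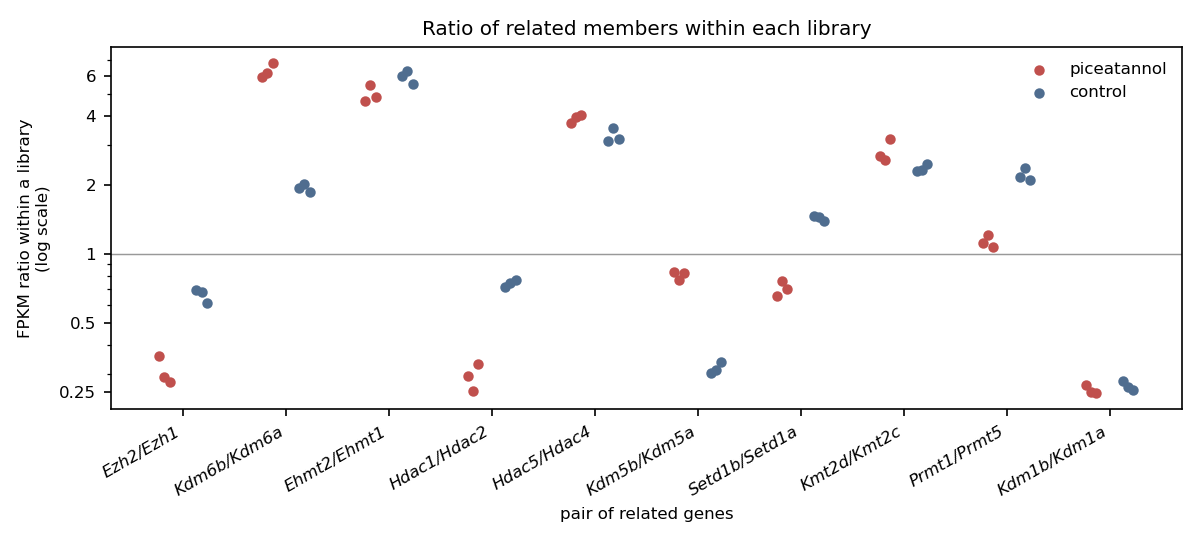
FPKM ratio of related genes within each library (log axis) for 10 pairs, piceatannol in red to the left of control in blue, each point 1 library. The Hdac1/Hdac2 and Ezh2/Ezh1 ratios are lower and the Kdm6b/Kdm6a and Kdm5b/Kdm5a ratios higher in all 3 piceatannol libraries, while Kdm1b/Kdm1a overlaps.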

How the data were processed

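Total RNA (1 µg per library) was extracted with Trizol and made into libraries with an Illumina TruSeq kit, per the labels' protocols. The authors deposited raw counts per gene symbol and FPKM values for the same 6 libraries. Their processing notes, per the submitters, name bcl2fastq, STAR, featureCounts and DESeq2 with mm10 and GRCm38, and give no versions. No annotation or strand setting is given in the sources used here. The deposited FPKM scale libraries as median-of-ratios factors do: counts per FPKM gave 0.711 for piceatannol replicate 2, as did those factors.

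Counts were filtered with filterByExpr in edgeR 4.0.16 (minimum count 10), which kept 15380 genes and 99.94% to 99.96% of the counts, scaled with TMM and tested with edgeR's quasi-likelihood test (robust, two-sided, no covariate, Benjamini-Hochberg adjustment). SE is the log2 fold change divided by the square root of F. Ratios within libraries used the deposited FPKM. Positions are those of GENCODE M21 on GRCm38.

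The members, gene lists and rule for named genes were chosen with earlier results of these data known. By that rule every tested member is named, CPM is given per library for members changed at least 2-fold and 9 others, and related lists give up to 2 genes per direction. Some items that the rule selects are not reported here. Other per-library values and the length, control replicate 2 and promoter descriptions were chosen after the values were seen.

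Same-numbered libraries of the groups deviated together (Pearson's r of 0.23, 0.17 and 0.21 over genes for numbers 1, 2 and 3, each the highest for its number), a hint of pairing that the labels do not state. The reported tests are unpaired, and the replicate number entered as a block in an alternative. Libraries of a group differed by more than counting noise (chi-square over its degrees of freedom, 9.88 to 18.1), and none looked like a repeat of another.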

Additional observations from a re-analysis of the deposited data

How the results depend on the processing

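Alternatives were RLE and upper-quartile scaling, no or a stricter filter (5 CPM in 3 libraries), DESeq2, limma-voom, limma on log2(FPKM + 1) and log2(FPKM + 0.1), removal of the length trend, the replicate block, an adjusted p threshold of 0.01, a required 2-fold change, and omission of each library in turn. Of the 48 called members, 43 kept their direction and call under all 16 refits that tested them; the exceptions were Hdac4, Kdm1b, Setd7, Nsd1 and Setd3. The replicate block changed 0 member calls (30 higher, 18 lower) and gave 6038 higher and 5974 lower genes over all. DESeq2 also gave 30 and 18. Without a filter 63 members were tested, Kdm4d, Kdm4dl and Kdm6bos among them, and 32 were higher and 18 lower. With a 2-fold change required, 8 members were higher and 2 lower, and 2686 and 2548 of all tested genes. The median log2 fold change over members was 0.24 with upper-quartile scaling, 0.28 with the stricter filter and 0.13 on log2(FPKM + 1), and ranged from 0.18 to 0.21 with 1 library left out.

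Upper-quartile scaling and the stricter filter ended the calls of Hdac4, Setd7, Nsd1 and Setd3, added those of Hdac5, Kdm2a and Prmt3 upward (and Prmt6 with the stricter filter), and each gave 33 members higher and 14 lower. Prmt3 also passed without control replicate 2, and Kdm8 passed downward without control replicate 3. Reversals were limited to members that had not passed. Under upper-quartile scaling Hdac3 had a log2 fold change of 0.028, Kdm4a 0.0401, Kmt2b 0.045 and Setd1b 0.0076. With the stricter filter Hdac3 had 0.034, Kdm4a 0.045, Kmt2b 0.0501 and Setd1b 0.012. With 1 library left out Hdac3 ranged from -0.043 to 0.0015, Kdm4a from -0.11 to 0.073, Kmt2b from -0.044 to 0.036 and Setd1b from -0.11 to 0.0015. The cause was not tested. Leave-one-out counts of members ran from 29 to 31 higher and 15 to 18 lower. Depth limits Hdac9, Hdac11, Kdm4d, Kdm4dl and Kdm6bos.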
